A study of Mus musculus with 6 samples.

Results

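The 248 microRNA precursor genes described here are those with at least 10 rounded counts in at least 3 of the 6 total RNA libraries, out of 1894 genes of type miRNA in the deposited table. They were chosen by these count levels alone, over both groups, so that their levels are a description. They made up 13.1% of these genes, another 728 had some counts but stayed under the limit, and 918 were at 0 in every library. The study compared wild-type (WT) E14tg2a.4 cells, a line of mouse embryonic stem cells, with Srrm2+/- cells of the same parental line, which carry a gene trap that truncates one copy of Srrm2. Srrm2 encodes a serine and arginine rich protein of nuclear speckles and the spliceosome. Both lines were grown on gelatin in medium with LIF and then in serum-free medium with LIF. The labels give 24 h or 72 h in this medium, while the methods of the study give 1 time between these for the total RNA cultures of both genotypes. Each group has 3 libraries from separately frozen cell batches. Each genotype is 1 cell line and the WT cells were at a higher passage, so that genotype, clone and passage cannot be told apart. Estimated counts summed to between 54151433 and 58499765 in the WT libraries and between 61022915 and 69933421 in the Srrm2+/- libraries.

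MicroRNAs are made from long primary transcripts, either their own or the intron of a host gene. In the nucleus Drosha and Dgcr8 cut out a short hairpin, Xpo5 exports it, and Dicer1 trims it to a duplex from which 1 strand is loaded onto an Argonaute protein. Bases 2 to 8 of the mature strand, the seed, carry most of the pairing to target messenger RNAs. Embryonic stem cells are known for the miR-290, miR-302 and miR-17 families, whose members share related seeds. Standard total RNA libraries hold fragments longer than mature microRNAs, so that the counts of a hairpin gene are not levels of mature microRNA. They can come from precursor RNA, intron RNA or any other longer RNA with the same sequence.

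A mature sequence was held by the RefSeq table (GRCm38) for 55 of the 248 genes. The sequences of 3 called genes are shown first, with the seed in capitals and 5′ to 3′. They lie at chr19:8888709-8888728 (minus strand, miR-5136), chr13:21896930-21896950 (minus strand, miR-1983), chr12:109723235-109723256 and chr12:109723270-109723291 (plus strand, the arms of miR-654).
miR-5136: aUAUGCGAgggaacuacugg
miR-1983: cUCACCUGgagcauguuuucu
miR-654-5p: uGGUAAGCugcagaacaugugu
miR-654-3p: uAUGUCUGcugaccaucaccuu

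The pair Mir3070a and Mir3070b is shown because the hairpins have 1 mature arm in common and differ in the other. Both give the same 5p arm, and the 3p arms (chr12:109587999-109588020 and chr12:109588648-109588669, plus strand) share their seed and differ by C9U and C10G, counted from the 5′ end with the base of Mir3070a first.
miR-3070-5p: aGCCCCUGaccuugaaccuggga
miR-3070-3p: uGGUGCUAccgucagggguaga
miR-3070-2-3p: uGGUGCUAuggucagggguaga

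The next sequences show seeds in common between genes of families known in embryonic stem cells. The arms miR-106a-5p (chrX:52742541-52742563) and miR-20b-5p (chrX:52742159-52742181) share 1 seed, and miR-363-3p (chrX:52741697-52741718) and miR-92a-3p (chrX:52741854-52741874) share another, all on the minus strand. The 3p arms of Mir290a (chr7:3218674-3218697) and Mir291b (chr7:3219529-3219550), on the plus strand, have seeds that differ in the last base. Among the members with a mature sequence, 8 seeds were shared by at least 2 genes.
miR-106a-5p: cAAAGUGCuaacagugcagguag
miR-20b-5p: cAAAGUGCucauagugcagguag
miR-363-3p: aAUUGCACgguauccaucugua
miR-92a-3p: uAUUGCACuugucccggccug
miR-290a-3p: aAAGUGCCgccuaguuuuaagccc
miR-291b-3p: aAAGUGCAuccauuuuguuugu

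The trapped gene was measured first. Srrm2 stood at 91.2, 98.3 and 97.7 CPM in the WT libraries and at 62.3, 56.2 and 59.6 CPM in the Srrm2+/- libraries. The groups did not overlap, and the difference was −0.69 on the log2 scale (SE 0.05, adjusted p = 2.38e-05, edgeR quasi-likelihood test with Benjamini-Hochberg adjustment over all tested genes). CPM are rounded counts over library sizes scaled with TMM, brought to a common size, and log2 fold changes are Srrm2+/- over WT throughout. The summed level of 8 embryonic stem cell markers was 5058 to 5241 CPM in WT and 4426 to 4537 CPM in Srrm2+/- cells. Sums for markers of other lineages were far below these in every library. Neural markers gave 80.5 to 86.8 CPM in WT and 58.4 to 60.8 CPM in Srrm2+/- libraries, trophectoderm markers 52.0 to 52.9 and 32.3 to 35.3 CPM, and primitive endoderm markers 1.98 to 2.15 and 1.59 to 2.06 CPM. Mesoderm markers gave 0.822 to 1.59 CPM in WT and 4.23 to 5.10 CPM in Srrm2+/- libraries (2 of 3 tested called higher). Fibroblast and mesenchyme markers gave 3.36 to 3.63 and 6.53 to 9.88 CPM (3 of 5 tested called higher). Of the 8 stem cell markers 1 was called higher and 5 lower. Of 4 tested neural markers 1 was called higher and 2 lower, and of 4 tested trophectoderm markers 1 higher and 1 lower. Of 4 tested primitive endoderm markers 0 were called. Over all tested genes 13.6% were called higher and 11.7% lower. No listed marker was at 0 in all libraries, and the part of these marker shifts in the results on microRNA genes was not tested. In bulk RNA, fewer cells of a type and less RNA per cell cannot be told apart.

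The members were mostly short and thinly covered. Hairpin genes were 57 to 204 bases long with a median of 99, and 209 of the 248 (84.3%) had a mean count under 50. By symbol, 162 are predicted genes (Gm) and 86 are named Mir. By position, 144 lie in introns of a gene on the same strand, 98 lie between genes and 6 overlap exons.

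Many hairpins are near copies of one another, which limits how far reads can be assigned. All 31-base words of 53 members also occur in other transcripts, while 58 members have under 5% of their words elsewhere. The table held 230 distinct rows of counts for the 248 members, since copies with the same sequence received the same share of the reads. Values of such genes belong to the set of copies, not to 1 gene.

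Of the members, 230 passed the filter on low counts and were tested. The test called 9 of them, 7 higher and 2 lower in Srrm2+/- cells, which is 3.91% against 25.3% of all 18905 tested genes and 8.71% of tested genes with a mean count of 10 to 50. For the higher calls the background was 13.6% and for the lower calls 11.7%. With rows of identical counts taken once, 7 of 212 were called. The groups did not overlap in CPM for 50 of the 230 tested members, 39 of them with higher Srrm2+/- values, beside 41.4% of all tested genes without overlap in either direction. Copies with identical counts are each counted in these 50. Log2 fold changes of the members had a median of 0.16, beside −0.0025 over all tested genes, with 149 members above and 81 below 0. Tested genes with a mean count of 10 to 50 had a median of 0.03, with 2348 above and 2186 below 0. Members outside clusters had a median of −0.04, with 63 above and 68 below 0, while the Sfmbt2 intron had 63 above and 8 below (50 and 8 with identical rows taken once). The rule asked for counts in 3 libraries of any group, and 4 members met it in Srrm2+/- libraries alone and so had to differ. Other members, among them the called Mir654 and Gm27754, reached the limit in 1 WT library and in all 3 Srrm2+/- libraries. The limit is on counts not scaled for library size, and the Srrm2+/- libraries are larger, so that it is easier to reach there. The median SE was 0.37 for the members and 0.12 for all tested genes.

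**Figure D1:**
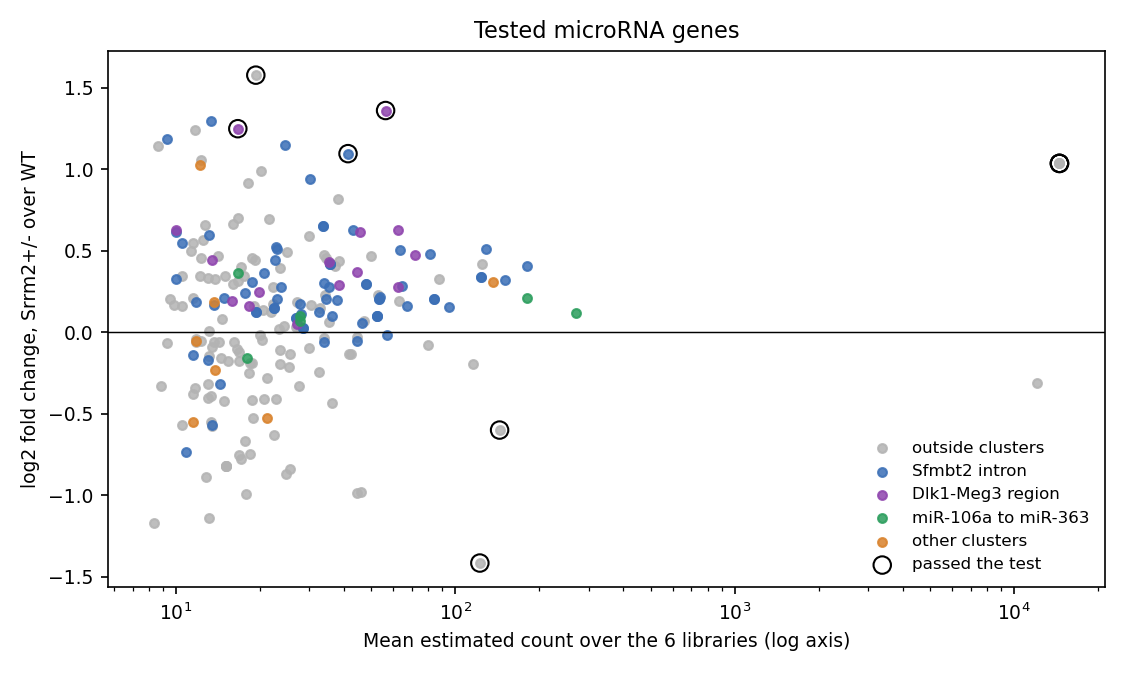
Log2 fold change of each tested microRNA gene (y axis) against its mean estimated count over the 6 libraries (x axis, log scale). Colours give the cluster and rings mark the 9 genes that passed the test, 3 of which have identical counts and lie on 1 point at the right. Most genes sit below a mean count of 50, and the genes of the Sfmbt2 intron lie mostly above 0.

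At the limit itself, 17 members had a count of exactly 10 in the library ranked 3 from the top, and 21 genes just outside had 9 there. Mir16-2, just inside, had 11, 13 and 3 counts in WT and 6, 10 and 8 in Srrm2+/- libraries. Mir540, just outside, had 9, 7 and 4 counts in WT and 16, 10 and 9 in Srrm2+/- libraries. The values on the 2 sides overlapped, from 0 to 21 counts inside and from 0 to 24 outside.

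Mir5136 was the member with the largest called decrease. This hairpin gene lies at chr19:8888699-8888774 on the minus strand, between genes of that strand, and none of its words occurs in another transcript. It stood at 2.74, 3.15 and 3.27 CPM in WT and at 0.910, 0.986 and 1.54 CPM in Srrm2+/- libraries. Every Srrm2+/- library was below every WT library. The log2 fold change was −1.42 (SE 0.21, adjusted p = 0.00151). Its neighbour 13 bases away on the same strand is Snora57, a small nucleolar RNA of the kind that guides RNA modification, named here after its values were seen. Snora57 was at 76.8, 107 and 63.2 CPM in WT and at 32.7, 42.0 and 39.6 CPM in Srrm2+/- libraries, a log2 fold change of −1.11 (SE 0.17, adjusted p = 0.00182). There were 3.89 ± 1.16 Mir5136 counts per 100 Snora57 counts in WT and 3.01 ± 0.797 in Srrm2+/- libraries (SD, n = 3 each), and these ratios overlapped. All snoRNA genes together took 0.577 ± 0.0922% of the counts in WT and 0.350 ± 0.0323% in Srrm2+/- libraries, and their part in the Mir5136 result was not tested.

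Mir1983, at chr13:21896918-21897049 on the minus strand, was the other gene called lower. It had 125, 188 and 171 counts in WT and 118, 136 and 127 in the larger Srrm2+/- libraries, or 2.90 ± 0.561 against 1.91 ± 0.184 CPM (SD, n = 3 each). The groups in CPM did not overlap, although WT replicate 1 (2.25 CPM) lay close to Srrm2+/- replicate 3 (2.06 CPM). The log2 fold change was −0.60 (SE 0.18, adjusted p = 0.0369). The call was lost on leaving out any single library other than WT replicate 1, with log2 fold changes of −0.66 to −0.51 and adjusted p of 0.0717 to 0.121.

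The highest levels per length belonged to 3 predicted genes of 57 bases with identical counts, Gm23935 (chromosome 16), Gm24245 (chromosome 4) and Gm24270 (chromosome 9, in an intron of Peak1). Each was listed at 138, 139.5 and 176 CPM in WT and at 319, 348 and 262 CPM in Srrm2+/- libraries. All Srrm2+/- libraries were above all WT libraries, with a log2 fold change of 1.04 (SE 0.12, adjusted p = 0.000313). All their words are shared, so that the 3 calls are 1 measurement. Peak1, which encodes a pseudokinase, had 17.7 ± 1.03 CPM in WT and 17.04 ± 1.97 CPM in Srrm2+/- libraries (SD, n = 3 each) and was not called (adjusted p = 0.720).

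**Figure D2:**
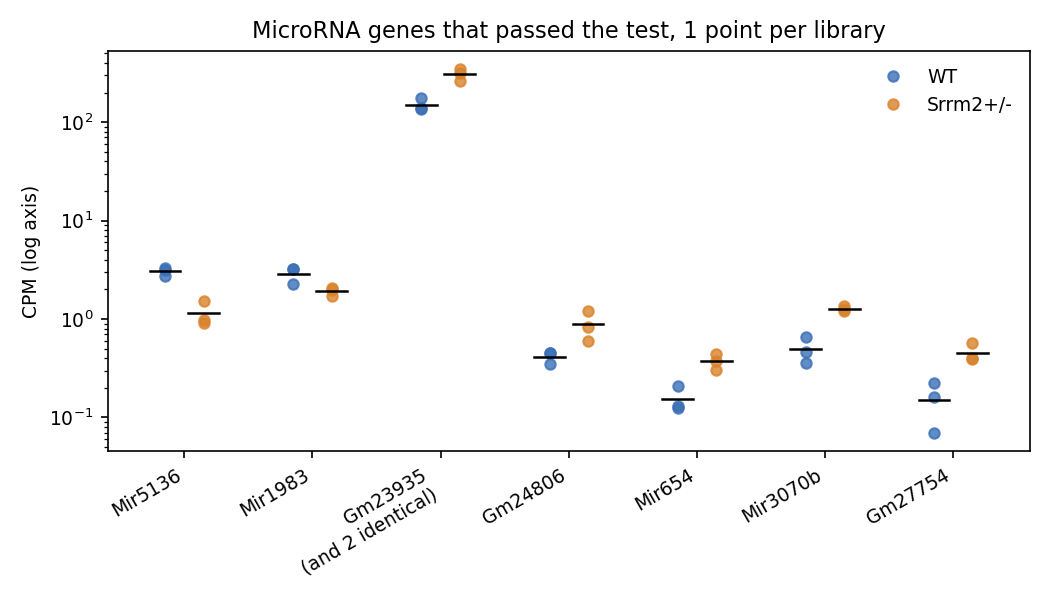
CPM (y axis, log scale) of the microRNA genes that passed the test, with 1 point per library and a line at each group mean of 3 libraries. Gm23935 stands for 3 genes with identical counts. For each gene shown the WT and Srrm2+/- points do not overlap, with Mir1983 the closest to doing so.

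Mir3070b had the firmest increase among the genes with a mature sequence. It lies at chr12:109588592-109588680 on the plus strand, 512 bases from the end of Rtl1, which runs on the minus strand. It stood at 0.360, 0.657 and 0.467 CPM in WT and at 1.34, 1.204 and 1.28 CPM in Srrm2+/- libraries, a log2 fold change of 1.36 (SE 0.25, adjusted p = 0.00385). The 2 groups did not overlap. Mir3070a, 560 bases before it, shares 22.0% of its words and had 0.991, 0.917 and 0.840 CPM in WT and 0.665, 1.23 and 1.44 CPM in Srrm2+/- libraries. Mir3070a overlapped between groups and was not called (log2 fold change 0.28, SE 0.29, adjusted p = 0.539). The difference between the 2 genes was not tested.

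Mir654, Gm24806 and Gm27754 were called higher on low counts. Both Mir654 and Gm27754 met the rule for members through the Srrm2+/- libraries, where they are higher, so that their calls are tied to it. Mir654 had 7, 12 and 7 counts in WT and 26, 21 and 27 in Srrm2+/- libraries (log2 fold change 1.25, SE 0.37, adjusted p = 0.0365). This call was lost without any single library other than WT replicate 2, at 1.12 to 1.38 and adjusted p of 0.0563 to 0.134. It was also lost with DESeq2 (adjusted p = 0.120) and with a filter of 1 count over all libraries (adjusted p = 0.0556).

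Gm24806, in the Sfmbt2 intron, had 25, 20 and 24 counts in WT and 58, 84 and 37 in Srrm2+/- libraries (log2 fold change 1.10, SE 0.31, adjusted p = 0.0302). Its call was lost without any single library other than Srrm2+/- replicate 3, at 0.80 to 1.16 and adjusted p of 0.0610 to 0.113, and with limma voom (adjusted p = 0.0532). Gm27754 had 9, 4 and 12 counts in WT and 28, 39 and 24 in Srrm2+/- libraries (log2 fold change 1.58, SE 0.43, adjusted p = 0.0266). Its call was lost without any single library other than WT replicate 3, at 1.23 to 1.67 and adjusted p of 0.0582 to 0.0983, and 97.9% of its words occur in other transcripts. The groups did not overlap in CPM for any of the 3 genes.

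Genes on the same strand within 10 kb were joined to clusters, and 8 clusters held at least 2 members. The summed counts of 3 of these 8 were higher in Srrm2+/- cells, beside 25.4% of all features called in that fit. These were the Sfmbt2 intron, the Mirg end of the Dlk1-Meg3 region and the Mir3070 pair.

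**Figure D3:**
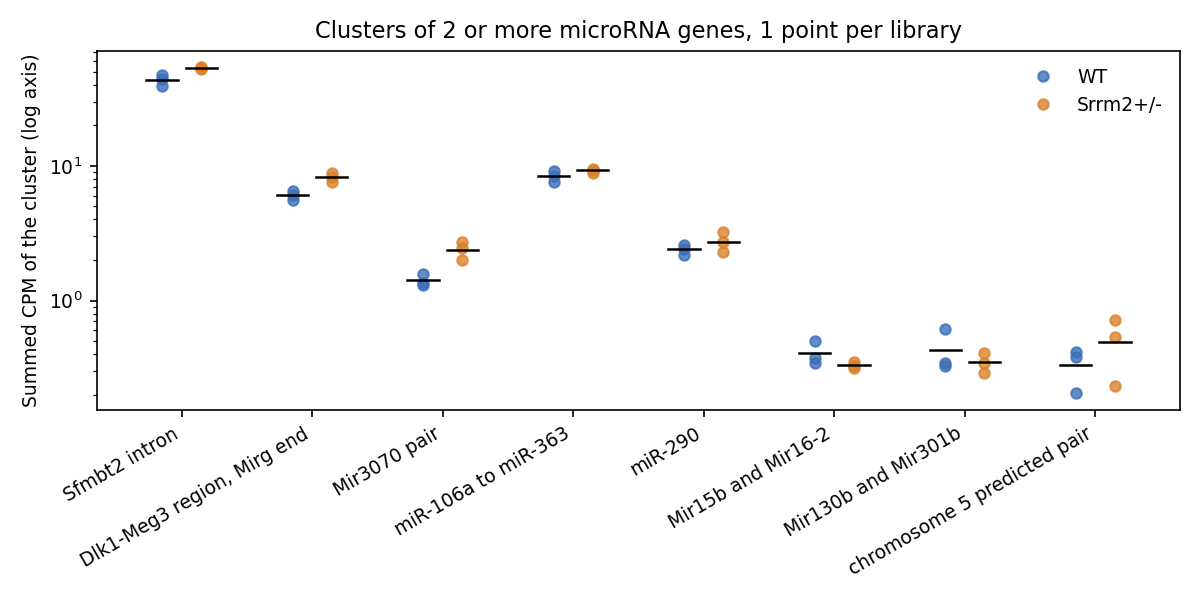
Summed CPM (y axis, log scale) of each cluster of microRNA genes, with 1 point per library and a line at each group mean of 3 libraries. In the first 3 clusters all Srrm2+/- libraries lie above all WT libraries, while in the other 5 the groups overlap.

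The largest cluster lies in an intron of Sfmbt2, an imprinted Polycomb-related gene whose intron carries a rodent array of repeated microRNA genes. It held 73 members out of 118 annotated hairpin genes of its strand between chr2:10465287-10517730. The members' sum was 46.9, 39.2 and 44.0 CPM in WT and 54.1, 53.0 and 52.4 CPM in Srrm2+/- libraries. All Srrm2+/- sums were above all WT sums, with a log2 fold change of 0.29 (SE 0.06, adjusted p = 0.00911). The sum includes Mir466g and Mir297a-3, which met the limit in Srrm2+/- libraries alone and so had to differ. Mir466g had 3, 6 and 2 counts in WT and 11, 15 and 11 in Srrm2+/- libraries. Mir297a-3 had 2, 9 and 4, and 14, 12 and 15 counts. The whole sum was 2601, 2268 and 2358 counts in WT. The cluster is full of near copies, and the 73 members had 60 distinct rows of counts. Over the 9 members with under 5% of their words elsewhere, an alternative added after the data were seen, the sum changed by 0.32 (SE 0.13) and was not called (adjusted p = 0.122).

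Within the Sfmbt2 intron 71 members were tested and 1, Gm24806, was called. Of these, 63 were above 0 and 8 below, with a median log2 fold change of 0.21. With identical rows taken once, 58 remained, 50 above 0 and 8 below, with a median of 0.23. All lie in 1 host gene, so that they are not independent. The groups did not overlap for 18 of the 71, all higher in Srrm2+/- libraries, and the background of genes with no overlap and higher values was 21.4%. The 18 count each copy with identical counts, such as Mir669a-1 and Gm26092, and include Mir297a-3, which had to differ. They are therefore fewer separate measurements and no excess over the background can be read from them. Mir669a-3, the most abundant per length, had 2.85, 2.21 and 2.43 CPM in WT and 3.48, 3.64 and 2.79 CPM in Srrm2+/- libraries and overlapped (log2 fold change 0.41, SE 0.16, adjusted p = 0.0972). Mir669i had 1.10 ± 0.0605 CPM in WT and 1.53 ± 0.141 CPM in Srrm2+/- libraries without overlap (SD, n = 3 each, adjusted p = 0.0698). Mir669f had the lowest log2 fold change of the cluster, −0.74 (SE 0.60, adjusted p = 0.428).

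Sfmbt2 itself was at 83.6, 85.2 and 84.97 CPM in WT and at 95.04, 98.9 and 99.0 CPM in Srrm2+/- libraries (log2 fold change 0.21, SE 0.04, adjusted p = 0.00333). There were 51.3 ± 5.03 counts of the cluster per 100 Sfmbt2 counts in WT and 54.4 ± 2.18 in Srrm2+/- libraries (SD, n = 3 each), and these ratios overlapped. In order along the intron, the first 25 members had a median log2 fold change of 0.17 and the next 24 one of 0.20. Of the last 24 members 22 were tested, with a median of 0.35, as a description with no test. Copies with identical counts lie in different parts, such as Mir669a-1 in the first and Gm26092 in the last (0.34 each). Reads of such copies have no known position. The last part also holds Mir297a-3 (1.18), which met the limit in Srrm2+/- libraries alone.

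**Figure D4:**
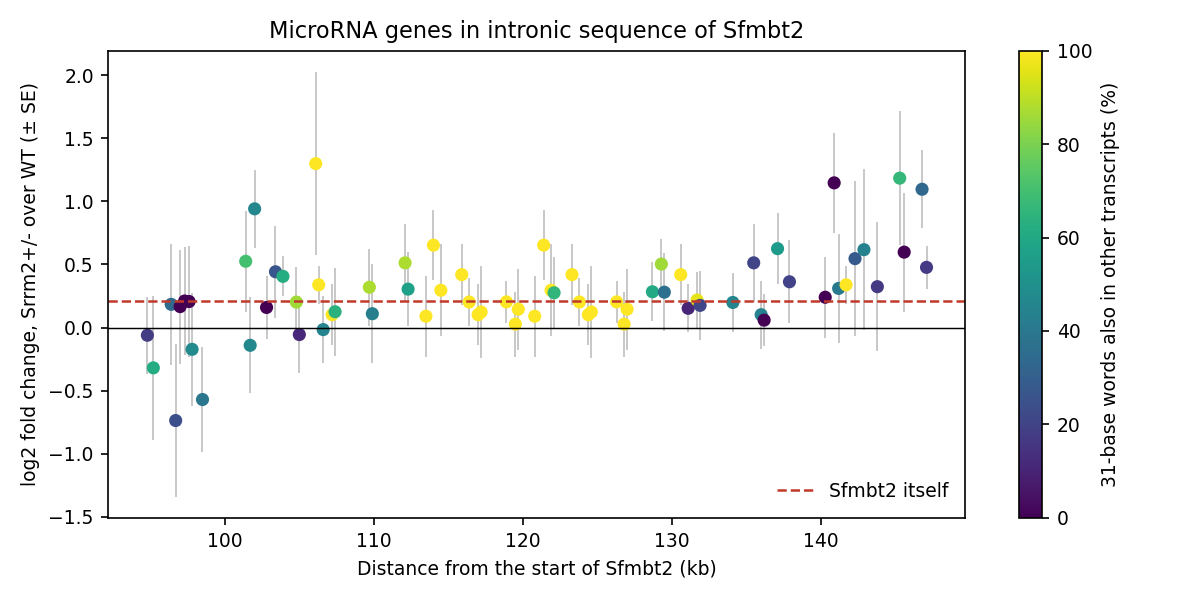
Log2 fold change with its SE (y axis) of the tested microRNA genes in the Sfmbt2 intron against their distance from the start of Sfmbt2 in kb (x axis), coloured by the share of 31-base words found in other transcripts. The solid line is at 0 and the dashed line marks Sfmbt2 itself, at 0.21. The genes scatter around the dashed line with errors that mostly cross it, and the genes with all words shared fill the middle of the array.

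The second called cluster lies in the imprinted Dlk1-Meg3 region, whose maternal allele is known to make a long series of non-coding RNAs with microRNAs and snoRNAs inside. Its 15 members at chr12:109712317-109742498 (plus strand) have nearly all their words to themselves. The sum was 6.13, 6.50 and 5.62 CPM in WT and 7.57, 8.28 and 8.80 CPM in Srrm2+/- libraries. Again the groups did not overlap, and the log2 fold change was 0.43 (SE 0.10, adjusted p = 0.0114). All 13 tested members were above 0, from 0.05 to 1.25, and Mir654 was the 1 called.

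The other members of the region varied in strength. Mir453, in an intron of Mirg, had 0.781 ± 0.166 CPM in WT and 1.21 ± 0.0674 CPM in Srrm2+/- libraries without overlap (SD, n = 3 each, adjusted p = 0.0570). Mir1193 had 0.972 ± 0.0486 and 1.35 ± 0.198 CPM, also without overlap (adjusted p = 0.0968). Mir666 had 0.438 ± 0.0675 and 0.455 ± 0.111 CPM with overlap (adjusted p = 0.923). Mir300 and Mir668 did not pass the filter and were not tested.

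The long non-coding RNAs of the region were higher as well. Mirg, which hosts 4 of the members, was at 84.5, 87.7 and 92.5 CPM in WT and at 115, 119 and 125 CPM in Srrm2+/- libraries (log2 fold change 0.44, SE 0.05, adjusted p = 0.000228). The cluster had 6.92 ± 0.730 counts per 100 Mirg counts in WT and 6.86 ± 0.261 in Srrm2+/- libraries (SD, n = 3 each), with overlap. Rian, which hosts snoRNAs, changed by 0.54 (SE 0.05, adjusted p = 0.000111) and Meg3 by 0.29 (SE 0.05, adjusted p = 0.00245). Rtl1, a retrotransposon-derived gene on the opposite strand, changed by 0.59 (SE 0.06, adjusted p = 0.000153). Rian, Meg3 and Rtl1 were named after their values were seen. The Mir3070 pair in the same region had sums of 1.35, 1.57 and 1.31 CPM in WT and 2.01, 2.44 and 2.72 CPM in Srrm2+/- libraries (log2 fold change 0.76, SE 0.17, adjusted p = 0.0116).

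The cluster from miR-106a to miR-363, a relative of the miR-17 cluster, was the best covered outside imprinted regions and the Sfmbt2 intron. All 6 of its hairpin genes at chrX:52741693-52742567 (minus strand) were members with words of their own. Their sum was 7.53, 8.46 and 9.18 CPM in WT and 9.54, 8.90 and 9.34 CPM in Srrm2+/- libraries. The groups overlapped and the sum was not called (log2 fold change 0.14, SE 0.09, adjusted p = 0.303). Mir363 was listed at 4.07, 4.31 and 4.31 CPM in WT and at 4.36, 4.37 and 5.02 CPM in Srrm2+/- libraries (log2 fold change 0.12, SE 0.11, adjusted p = 0.502).

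The 6 hairpins of this cluster were far from even. Per kb of hairpin, Mir363 had 58.8 CPM and Mir18b 35.5 CPM, while Mir20b, Mir106a, Mir92-2 and Mir19b-2 had 3.36 to 5.38 CPM. Mir106a and Mir20b, which share a seed, had log2 fold changes of −0.16 (SE 0.42) and 0.36 (SE 0.49). None of the 6 was called by edgeR, DESeq2 or limma voom, and 0 had an unadjusted p under 0.05. Kis2, a non-coding transcript that overlaps the end of Mir106a by 5 bases, had 30.7 ± 0.0982 CPM in WT against 34.6 ± 1.18 CPM in Srrm2+/- libraries (SD, n = 3 each). Its log2 fold change of 0.18 (SE 0.05, adjusted p = 0.0213) lost its call without Srrm2+/- replicate 2 or 3 or WT replicate 2 or 3, at 0.15 to 0.19 and adjusted p of 0.0505 to 0.0714. The cluster had 27.4 ± 2.78 counts per 100 Kis2 counts in WT and 26.8 ± 1.81 in Srrm2+/- libraries.

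The miR-290 family, the leading microRNA family of embryonic stem cells, was seen through a small part of its array. Mir290a was at 1.98, 1.82 and 2.13 CPM in WT and at 2.41, 2.28 and 2.64 CPM in Srrm2+/- libraries. The groups did not overlap, yet the difference was not called (log2 fold change 0.31, SE 0.14, adjusted p = 0.158). Mir291b had 25, 20 and 25 counts in WT and 22, 0 and 35 in Srrm2+/- libraries, and all its words also occur in a transcript of Nlrp12 on the opposite strand. The other 5 hairpins in the table, Mir291a, Mir292, Mir293, Mir294 and Mir295, were listed at 0 in all libraries and have all their words in Nlrp12 transcripts too. Nlrp12, annotated as an inflammasome-related receptor gene, had 367 ± 23.9 CPM in WT against 365 ± 5.75 CPM in Srrm2+/- libraries (SD, n = 3 each, adjusted p = 0.956). Reads of the array and of Nlrp12 cannot be told apart without the strand, and the strand setting of the counting is not given in the sources used here.

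Other known hairpins lie inside longer transcripts of their own strand, so that the strand would not separate their reads. All 6 hairpins of the miR-17 cluster were listed at 0 and have all their words in their host Mir17hg, which had 95.4 ± 4.45 CPM in WT against 93.2 ± 6.78 CPM in Srrm2+/- libraries (SD, n = 3 each, adjusted p = 0.739). Mir25 and Mir93 were at 0 with all words in Mcm7, a subunit of the replicative helicase (log2 fold change −0.02, SE 0.05, adjusted p = 0.803).

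Mir21a was at 0 with all words in Vmp1, a gene of autophagy. Vmp1 stood at 44.8, 41.2 and 44.0 CPM in WT and at 63.5, 63.4 and 58.7 CPM in Srrm2+/- libraries (log2 fold change 0.51, SE 0.05, adjusted p = 0.000142). Mir675 was at 0 with all words in H19, an imprinted non-coding RNA that had 0, 0 and 7 counts in WT and 253, 315 and 210 in Srrm2+/- libraries. A listed 0 for these hairpins therefore says nothing of the primary transcript. Over the whole table, 387 of the 918 hairpins at 0 (42.2%) had at least 95% of their words in other transcripts, against 65 of the 248 members (26.2%). The share was 15.3% for the 728 genes under the limit. Another 405 of the hairpins at 0 (44.1%) had under 5% of their words elsewhere, against 58 members (23.4%), so that shared words do not cover most zeros.

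Mir335, in an intron of the imprinted gene Mest, had 0, 0 and 2 counts in WT and 0, 0 and 3 in Srrm2+/- libraries. Mest had 2.76 ± 0.268 CPM in WT against 47.6 ± 4.31 CPM in Srrm2+/- libraries (SD, n = 3 each, adjusted p = 6.58e-08). Mir302b, of a family that rises in primed pluripotent cells, stayed under the limit with 3, 1 and 4 counts in WT and 16, 8 and 8 in Srrm2+/- libraries. The 5 genes of the miR-302 and miR-367 array summed to 18, 8 and 11 counts in WT and to 30, 17 and 17 in Srrm2+/- libraries, and neither the single genes nor this sum were tested. Of the let-7 family, whose maturation Lin28 proteins block, Mir98 was the 1 member among 10 genes in the table. It had 15, 12 and 17 counts in WT and 15, 11 and 10 in Srrm2+/- libraries (log2 fold change −0.55, SE 0.37, adjusted p = 0.323). No gene of the miR-21, miR-34, miR-143 and miR-145, miR-200, miR-221 and miR-222 or miR-23, miR-24 and miR-27 families was a member. For 5 of the let-7 hairpins and for Mir21a, Mir429 and Mir27b, all words occur in other transcripts, so that their listed 0 is not informative.

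The genes of the miR-15 and miR-16 family share the seed AGCAGCA and were found at 2 places. Mir15a, in an intron of the non-coding gene Dleu2, was at 0.414, 0.363 and 0.597 CPM in WT and at 0.275, 0.319 and 0.292 CPM in Srrm2+/- libraries. The groups did not overlap, and the difference was not called (log2 fold change −0.63, SE 0.31, adjusted p = 0.185). Dleu2 had 86.2 ± 3.13 CPM in WT against 74.6 ± 1.63 CPM in Srrm2+/- libraries (SD, n = 3 each) and was called lower (log2 fold change −0.21, SE 0.04, adjusted p = 0.00605). Mir15b and Mir16-2 lie in Smc4, a condensin subunit, and their sum overlapped between groups (log2 fold change −0.30, SE 0.29, adjusted p = 0.509).

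Mir6236 had the highest level outside the 3 identical genes and the least stable one. It was listed at 181, 445 and 23.3 CPM in WT and at 132, 357 and 33.1 CPM in Srrm2+/- libraries. The groups overlapped entirely, and replicates of the same number in the 2 groups stood close together. Gm42418, a gene model on chromosome 17 named after its values were seen, was at 1097, 1563 and 569 CPM in WT and at 960, 1454 and 644 CPM in Srrm2+/- libraries, in the same order. Mir6236 was not called (log2 fold change −0.31, SE 0.95, adjusted p = 0.851). With Mir6236 and the 3 identical genes left out, the members held 0.0119 ± 0.000585% of all counts in WT and 0.0130 ± 0.000216% in Srrm2+/- libraries (SD, n = 3 each).

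Host genes were measured far more precisely than the hairpins inside them. Of 73 hosts on the same strand 72 had a row and 63 were tested, and 21 were called, 8 higher and 13 lower. This is 33.3%, beside 25.3% of all tested genes and 30.8% of tested genes with a mean count of 50 or more. The median mean count of the hosts was 1062. For 52 hosts with 1 member and both tested, the median SE was 0.06 for hosts and 0.39 for members. The member had the sign of its host in 31 of the 52 and the opposite sign in 21, and among the 18 hosts that were called in 14 and 4, counts given without a test. L3mbtl3, a reader of methylated histones, was the called host of a called single member (0.81, SE 0.16, adjusted p = 0.00594, with Gm27754).

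**Figure D5:**
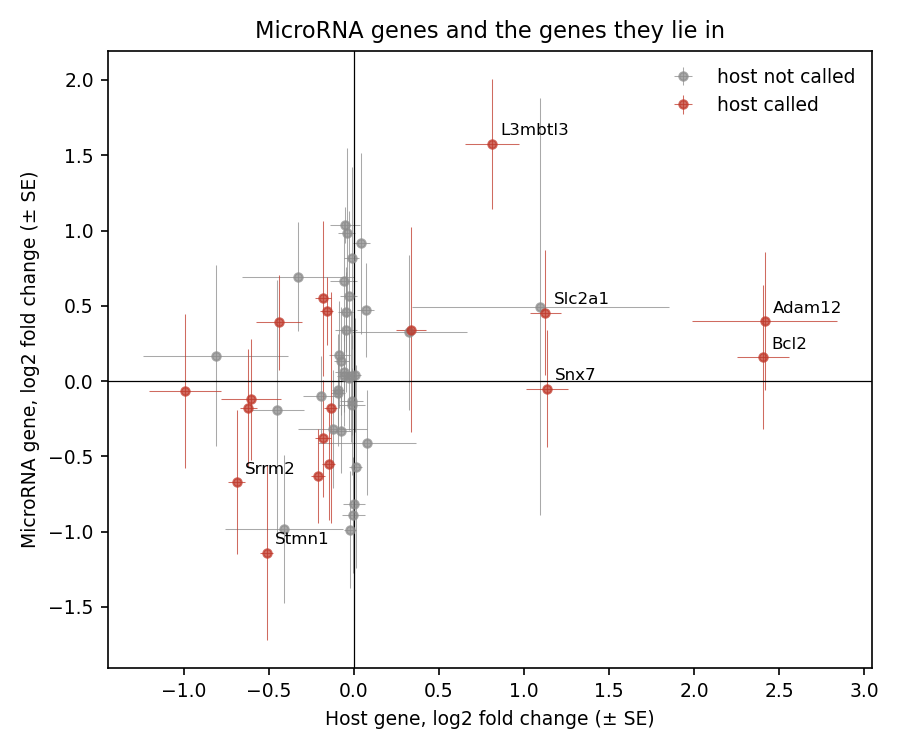
Log2 fold change of the microRNA gene (y axis) against that of its host gene (x axis), each with its SE, for 52 hosts that hold 1 member and where both were tested. Red points are hosts that passed the test. Bcl2 and Adam12, hosts with large changes, hold microRNA genes at 0.16 (SE 0.48) and 0.40 (SE 0.46), not resolved from 0. The vertical error bars are longer than the horizontal ones for most pairs.

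Mir5125 lies in an intron of Srrm2 itself, at chr17:23823291-23823369. It had 16, 33 and 12 counts in WT and 9, 16 and 20 in Srrm2+/- libraries, which overlapped (log2 fold change −0.67, SE 0.48, adjusted p = 0.359). Per 1000 Srrm2 counts there were 3.76 ± 1.83 Mir5125 counts in WT and 3.89 ± 1.69 in Srrm2+/- libraries (SD, n = 3 each).

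The 5 called hosts with the largest changes held no called member. Bcl2, which blocks apoptosis, rose from a mean of 0.901 ± 0.110 CPM to one of 4.78 ± 0.412 CPM (SD over 3 libraries, log2 fold change 2.41, adjusted p = 1.09e-05), while its intronic Mir3473f changed by 0.16 (SE 0.48). Adam12, a membrane metalloprotease, changed by 2.42 (adjusted p = 0.00348) and its Gm23631 by 0.40 (SE 0.46). Slc2a1, the glucose transporter GLUT1, rose from a mean of 99.1 ± 14.3 CPM to one of 216 ± 11.2 CPM (SD over 3 libraries, log2 fold change 1.12, adjusted p = 4.45e-05), and its Mir1957a had a log2 fold change of 0.45 (SE 0.42), not called. Snx7, a sorting nexin, changed by 1.14 (SE 0.12, adjusted p = 0.000221) and its Gm24811 by −0.05 (SE 0.39). Gm20388 changed by −1.24 (SE 0.29, adjusted p = 0.0133), and its Mir1967 was not tested. Gm20388 is a gene model 4434882 bases long, so that its value is for the whole model and not for the stretch around Mir1967.

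Among the lower hosts, Stmn1, a regulator of microtubules, changed by −0.51 (adjusted p = 3.19e-05) with Gm23634 at −1.14 (SE 0.58). Huwe1, a ubiquitin ligase that hosts Mir98, changed by −0.15 (SE 0.04, adjusted p = 0.0211). The Huwe1 call was lost without Srrm2+/- replicate 2 or 3 or WT replicate 2 or 3, at −0.15 to −0.13 and adjusted p of 0.0640 to 0.0823. Rest and Sp3, both transcription regulators, were lower at −0.18 and −0.16 with members at 0.55 (SE 0.51, Mir5098) and 0.47 (SE 0.22, Gm25960), neither called. The count of lower hosts went from 13 to 7 without Srrm2+/- replicate 2 or 3, and to 8 without WT replicate 2 or 3.

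The proteins that make and use microRNAs were covered by 32 genes, all tested, of which 4 were called higher and 6 lower, 10 in all. Their log2 fold changes had a median of −0.01. The share called was 31.3%, beside 25.3% of all tested genes and 30.8% of tested genes with a mean count of 50 or more. The pathway genes are well covered, with a median mean count of 3865, and their share was near the latter. Of the 14 genes of nuclear cleavage, export and dicing, 0 were called by edgeR, DESeq2 or limma voom, and 2 had an unadjusted p under 0.05. Drosha, the nuclear nuclease, had 109 ± 4.97 CPM in WT and 112 ± 2.90 CPM in Srrm2+/- libraries (log2 fold change 0.04, SE 0.04). Dgcr8, its partner, changed by −0.08 (SE 0.04, adjusted p = 0.181), Dicer1 by −0.0016 (SE 0.07, adjusted p = 0.990) and Xpo5 by 0.10 (SE 0.04, adjusted p = 0.0856).

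Argonautes and their partners moved downwards where they were called, in 5 of 9 genes. Over all tested genes 11.7% were called lower, and 2080 of the 14190 with a mean count of 50 or more. These 9 genes are a small part of a list whose whole share was near its background, and the parts were not compared by a test. Ago2, the slicing Argonaute, had 72.3 ± 1.81 CPM in WT against 63.6 ± 0.924 CPM in Srrm2+/- libraries (log2 fold change −0.19, SE 0.04, adjusted p = 0.00679). Ago3 changed by −0.28 (SE 0.05, adjusted p = 0.00288) and Mov10, an RNA helicase found with Argonautes, by −0.39 (SE 0.04, adjusted p = 0.000223). Tnrc6b, a scaffold that recruits deadenylases, changed by −0.30 (SE 0.05, adjusted p = 0.00297). Its paralog Tnrc6c changed by −0.21 (SE 0.06, adjusted p = 0.0357), a call lost without Srrm2+/- replicate 2 or 3 or WT replicate 2 or 3, at −0.20 to −0.16 and adjusted p of 0.0901 to 0.129.

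Regulators of precursors and of decay went both ways. Lin28a, which blocks let-7 processing, was at 419, 400 and 417 CPM in WT and at 534, 513 and 552 CPM in Srrm2+/- libraries without overlap (log2 fold change 0.37, SE 0.04, adjusted p = 0.000299). Lin28b rose by 0.30 (SE 0.05, adjusted p = 0.00159). Zswim8, the substrate receptor of a ligase that removes Argonautes on target-directed decay, was at 5.93, 7.11 and 7.26 CPM in WT and at 10.7, 10.4 and 11.2 CPM in Srrm2+/- libraries (log2 fold change 0.67, SE 0.10, adjusted p = 0.00107). Zc3h7a fell by 0.24 (SE 0.04, adjusted p = 0.00398) and Zc3h7b rose by 0.26 (SE 0.05, adjusted p = 0.00677), both zinc finger proteins that bind precursors. Tut4, Tut7, Dis3l2 and Trim71 had log2 fold changes of −0.04 to 0.08 and were not called.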

How the data were processed

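Total RNA was sequenced from 3 WT and 3 Srrm2+/- libraries. The authors made the deposited table of estimated counts per gene with kallisto 0.46.1 against the mouse GENCODE M24 transcriptome (mm10). Strand setting is not given in the sources used here. Counts were rounded to whole numbers. Genes were typed and placed with GENCODE M21 (GRCm38), which matched 42156 of 42450 rows. A host is a gene on the same strand that spans the hairpin. Words of 31 bases were compared between hairpins and all M21 transcripts, so that copies in RNA outside this annotation are not seen. All genes were filtered with filterByExpr, scaled with TMM and fitted with edgeR 4.0.16 (quasi-likelihood test, 2 groups, Benjamini-Hochberg over all tested genes, threshold 0.05), with R 4.3.3, DESeq2 1.42.0 and limma 3.58.1 for alternatives. Cluster sums replaced their members in a second fit. The scripts were tested on simulated data, where 76.0% of 2-fold and 51.5% of 1.5-fold changes were called. Of the genes called there, 10.8% had no change set. The members and lists were chosen with earlier results of these data known. The genes named are the called members, the 10 highest per kb, members of set families, genes at the limit, their hosts, the pathway list and called clusters. Replicates are separately frozen batches of 1 line per genotype.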

Additional observations from a re-analysis of the deposited data

How the results depend on the processing

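Counts of called genes kept within 1.5 times of their values under most alternatives. The 9 called microRNA genes became 8 with DESeq2, 8 with limma voom, 9 with RLE or upper quartile scaling, and 6 to 7 without 1 library. Of these, the higher calls went from 7 to 4 to 6 and the lower from 2 to 1 to 2 without 1 library. The lowest counts came without Srrm2+/- replicate 2 or WT replicate 1 (4 higher each) and without Srrm2+/- replicate 1, WT replicate 2 or WT replicate 3 (1 lower each). Among members with under 5% of their words elsewhere 2 were called, 1 higher and 1 lower, with fewer genes tested. The 3 called cluster sums became 4 with clusters joined at 3 kb, stayed 3 without any 1 library, and became 1 in sums over members with under 5% shared words, an alternative added after the data were seen. In it the Sfmbt2 sum was 0.32 in place of 0.29 and not called, and the Mir3070 pair had no such member and gave no sum. The 13 lower hosts became 7 to 11 without 1 library. The sum of Mir130b and Mir301b ranged from −0.46 to 0.0479 without 1 library, turning from −0.30 to the positive value without WT replicate 3, and neither was called. With the replicate number as a block, 4166 genes in place of 4781 were called, and 7 microRNA genes, 4 of them higher, with Mir654, Gm24806 and Gm27754 among those lost; the block left 3 cluster sums, 18 hosts and 9 pathway genes called. Deviations of same-numbered libraries correlated at −0.04, 0.10 and 0.04 over 11961 genes, so that the numbers were not taken to pair the samples. Single genes can differ from this, as Mir6236 and Gm42418 stood in the same order of replicate numbers in both groups. Tnrc6c and Huwe1 also lost their call under the block. At a median SE of 0.37, changes smaller than those called could not be resolved for most members.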
